A study of Mus musculus with 8 samples.

Results

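The 70 genes described here had levels in Setdb1 KO mESCs of 4 times WT mESCs or more and stayed under 1.5-fold of WT in mESCs treated with the G9a/GLP inhibitor UNC0642. They were chosen from 24062 genes by the ratio of CPM (the count divided by the library total, times 1e+06), with 0.5 CPM added to both sides. The list depends on this added value, since 46 of the 70 genes were also chosen with 0.1 CPM and 33 with 2 CPM. Both limits had to hold in replicate 1 against replicate 1 and in replicate 2 against replicate 2. A total of 191 genes reached the KO/WT limit in both pairs, and 76 of these also kept the UNC/WT limit. Symbols of 10 large families (among them the Olfr, Nlrp, Zfp and Rhox genes) were left out, which removed 6 genes (3 Olfr, 2 Nlrp and 1 Clec2). The other 115 genes with a KO/WT ratio of 4 or more had a UNC/WT ratio of 1.5 or more in at least 1 pair. WT, UNC0642-treated and Setdb1 KO libraries therefore chose the 70 genes, and their values are a description with no test. The libraries of Setdb1 KO mESCs that also received UNC0642 played no part in the choice.

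The RNA-seq libraries were made from poly(A) RNA of a mouse embryonic stem cell line in which Setdb1 can be deleted by adding 4-hydroxytamoxifen (4-OHT). All 4 conditions carry the conditional allele, so the results come from 1 line. WT mESCs were untreated, UNC0642-treated mESCs received 2 µM UNC0642 for 3 days, and Setdb1 KO mESCs received 800 nM 4-OHT for 5 days. The combined condition was Setdb1 KO mESCs given UNC0642. Its labels state 800 nM 4-OHT for 2 days followed by 2 µM UNC0642 for 3 days. By the labels, both KO conditions were collected 5 days after the first dose. The paper's methods give 5 days of 800 nM 4-OHT for Setdb1 KO in mESCs. By the labels the KO conditions differ in days of 4-OHT as well as in UNC0642, and these cannot be told apart. Only the KO conditions received 4-OHT, so its exposure cannot be told apart from Setdb1 loss when they are set against WT or UNC0642-treated mESCs. Each condition had 2 replicates, which the study's methods call biological. The p-values of the main fit rest on the spread between replicates, estimated over all 4 conditions together.

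SETDB1 is a histone H3 lysine 9 methyltransferase that zinc finger proteins bring to retroelements and to single-copy genes, and in mESCs it is known for silencing endogenous retroviruses and germ cell genes. G9a and GLP form another H3 lysine 9 methyltransferase, which deposits most of the dimethyl mark over large domains, and UNC0642 blocks its catalytic site. A gene that is raised by Setdb1 loss alone is one whose level differed without SETDB1 but not beyond the limit of the rule when G9a/GLP activity was inhibited.

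Library totals ranged from 11702590 to 26807807 counts, and 3 counts, taken as the detection floor, corresponded to between 0.112 and 0.256 CPM. This floor covers counting error only. Setdb1 itself was at 166 and 140.4 CPM in WT, 122 and 104 with UNC0642, 41.7 and 56.5 in Setdb1 KO and 49.5 and 35.3 in the combined condition. Marker genes of mESCs summed to between 2411 and 5009 CPM in all libraries, and those of trophectoderm, primitive endoderm, germ layers, feeder fibroblasts, blood and gut epithelium held no gene that passed the test in the combined condition against WT mESCs. Of the 8 markers of the 2-cell-like state, 7 passed this test as higher, where 3.08% of all genes did, and the sum of the 8 moved with the conditions. They summed to 8.20 and 29.2 CPM in WT, 698 and 293 with UNC0642, 309.9 and 159 in Setdb1 KO and 1065 and 590.3 in the combined condition. None of them is among the 70 genes, and their part in the results was not tested.

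Of the 70 genes, 68 could be placed on GENCODE M21 (GRCm38), 60 of them as protein coding and 6 as lincRNA. Sequences around the start sites were taken from RefSeq (GRCm38.p6), as windows of 250 bases before to 50 bases after each start, which were at hand for 55 of the 70 genes. The 4 windows printed here belong to Mael, Mov10l1, Taf7l and Tex12, genes that work in germ cells, and are shown because each holds the E-box CACGTG. Capitals mark every match, on either strand, to the E-box CACGTG, the E2F motif GCGGGA, the TATA box TATAAA and the CCAAT box CCAAT, and the CRE TGACGTCA was searched as well without a match in these windows. A match to CCAAT on the other strand reads ATTGG and one to GCGGGA reads TCCCGC, and in Taf7l a TATA box on each strand overlaps the other.
Mael (chr1:166238695-166238994, minus strand): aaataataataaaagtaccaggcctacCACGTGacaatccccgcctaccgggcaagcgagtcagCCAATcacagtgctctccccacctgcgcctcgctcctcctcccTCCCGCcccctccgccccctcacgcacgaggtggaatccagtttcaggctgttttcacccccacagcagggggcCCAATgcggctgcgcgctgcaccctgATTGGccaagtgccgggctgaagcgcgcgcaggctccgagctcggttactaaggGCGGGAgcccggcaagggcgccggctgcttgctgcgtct
Mov10l1 (chr15:88982744-88983043, plus strand): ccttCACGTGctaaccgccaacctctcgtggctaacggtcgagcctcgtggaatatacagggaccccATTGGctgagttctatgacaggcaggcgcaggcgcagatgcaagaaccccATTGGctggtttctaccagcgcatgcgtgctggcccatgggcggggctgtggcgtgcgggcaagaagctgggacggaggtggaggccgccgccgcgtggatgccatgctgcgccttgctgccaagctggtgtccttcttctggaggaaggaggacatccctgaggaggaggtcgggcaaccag
Taf7l (chrX:134476441-134476740, minus strand): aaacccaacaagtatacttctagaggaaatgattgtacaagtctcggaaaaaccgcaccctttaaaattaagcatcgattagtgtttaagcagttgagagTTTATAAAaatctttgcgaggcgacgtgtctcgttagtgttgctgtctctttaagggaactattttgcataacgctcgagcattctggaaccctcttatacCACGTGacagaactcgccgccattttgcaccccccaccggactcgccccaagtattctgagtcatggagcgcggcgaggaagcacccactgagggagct
Tex12 (chr9:50561219-50561518, minus strand): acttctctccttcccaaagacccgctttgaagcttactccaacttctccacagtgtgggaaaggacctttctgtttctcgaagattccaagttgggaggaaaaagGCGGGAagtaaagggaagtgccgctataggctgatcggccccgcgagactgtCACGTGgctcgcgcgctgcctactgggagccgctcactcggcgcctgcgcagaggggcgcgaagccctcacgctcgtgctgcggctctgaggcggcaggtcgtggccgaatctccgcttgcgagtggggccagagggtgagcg

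The E-box was in 10.1% of the 69 windows of these genes and in 7.15% of all windows in the table. Of 7 genes with a role in germ cells that had a window, 5 held it (the 4 printed and Dpy19l2), whereas Zcwpw1 and Tex13 did not. Outside the germ cell genes it was found in a window of Slc39a8 and in a window matched to A430078G23Rik through the RefSeq name Arhgef18. The latter (chr8:3392758-3393057) lies beyond the annotated A430078G23Rik (chr8:3353415-3390299), and Arhgef18 is also counted as a separate gene. The window at the start of A430078G23Rik held no E-box, so the 10.1% includes a match that is not at its start. Among all genes with a window, 8.09% held an E-box, and among 48 further germ cell genes of a list of meiosis and germ cell genes that are not part of the 70, 18 did. The other motifs, and the CpG content, were described in the same way. The CCAAT box was in 33.3% against 37.4%, the E2F motif in 15.9% against 19.98% and the TATA box in 15.9% against 13.6%, and the CRE in 0% against 1.79%. The CpG content, as the observed over the expected number, had a median of 0.371 against 0.384 over all windows. These matches describe the letters of the windows and not binding.

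The 70 genes were mostly at low levels in WT mESCs. Their mean level was between 0 and 185 CPM in WT mESCs with a median of 0.739, and between 2.34 and 2045 CPM in Setdb1 KO mESCs with a median of 15.3. In UNC0642-treated mESCs the median was 0.579 CPM. Both WT libraries had 3 or fewer counts for 19 of the genes and 0 counts for 9, which are Asb12, Dpy19l2, Gm1110, Klk1b3, Mmp10, Mmp1b, Mup3, Rdh16 and 4930572O03Rik. The KO/WT ratio had a median of 6.94 in replicate pair 1 and 9.62 in pair 2, and 46 of the 70 genes had the higher ratio in pair 2. It was above 10 in both pairs for 15 genes. On the log2(CPM + 0.5) scale, the 2 Setdb1 KO libraries differed by more than 2-fold for 27 of the 70 genes and most for Rian, at 3.88 and 38.1 CPM. In WT mESCs this was so, on the same scale, for 5 genes.

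**Figure D1:**
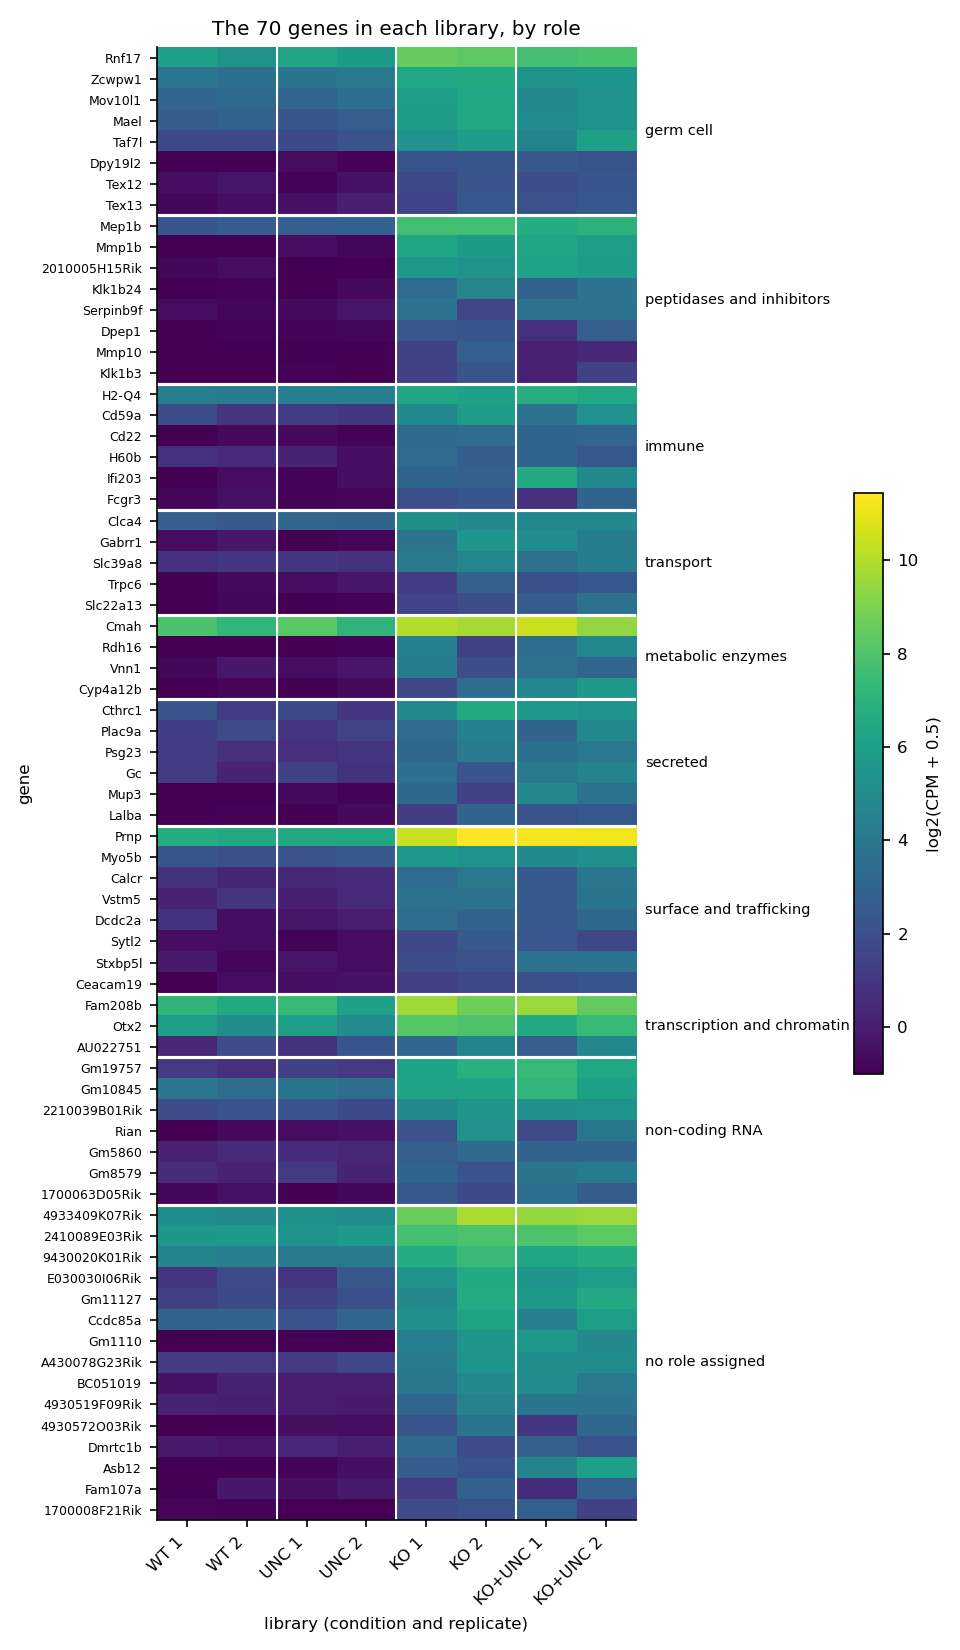
Level of the 70 genes as log2(CPM + 0.5) (color) in each of the 8 libraries (columns, condition and replicate; KO+UNC is the combined condition), with genes in rows grouped by role and ordered by mean CPM in Setdb1 KO mESCs. WT and UNC0642-treated libraries are dark in most rows and both KO conditions are bright, which the choice of the genes fixes for the first 3 conditions but not for the combined one.

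All 70 genes stayed above WT in the combined condition. Both libraries lay above both WT libraries for 70 of the 70 genes, against 15.9% of the 15313 genes tested. The test (edgeR quasi-likelihood with Benjamini-Hochberg adjustment over all features, adjusted p under 0.05) called 63 of the 70 higher than in WT mESCs and 0 lower, where 3.08% and 0.535% of all genes were called. With a fold change above 10 as a further limit the numbers were 51 genes and 2.61% higher, and 0 genes and 0.202% lower. Since the WT libraries were used in choosing the genes and low values there were favored, these counts are not independent of the choice. Values for genes at 0 in WT depend on the prior count of the fit. The median log2 fold change over WT was 4.64 (range 1.55 to 13.68) beside −0.06 over all genes tested, and 4.51 when the 9 genes at 0 in WT mESCs were set to the bound that 3 counts per library allow. With the replicate number as a block, 70 genes were called of 1239 in all, in place of 63 of 472. The call depended on the WT libraries: without WT replicate 1, 0 of the 70 genes and 0 of all genes passed (all 70 had an unadjusted p under 0.05), and without WT replicate 2, 7 of the 70 and 47 of all genes passed.

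The 7 genes that did not pass were Cmah, Dcdc2a, Fam107a, Fam208b, H60b, Otx2 and AU022751, with log2 fold changes between 1.55 and 4.25 and adjusted p-values from 0.0657 to 0.166. With the replicate block all 7 passed. In ratios of CPM plus 0.5 by replicate pair, 52 of the 70 genes reached 4-fold over WT in both pairs in the combined condition, 17 in 1 pair, and 1, Mmp10, in neither. Of all genes tested, 2.45% reached it in both pairs.

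The same genes were set against UNC0642-treated mESCs, a comparison of Setdb1 loss, together with 4-OHT exposure, in the presence of the inhibitor. Both libraries of the combined condition were above both UNC0642-treated libraries for 70 of the 70 genes, against 10.1% of all genes. The test called 52 of the 70 genes higher and 0 lower, against 0.869% and 0.0392% of all genes. With a fold change above 10 the numbers were 44 genes and 0.686% higher and 0 genes and 0.0131% lower, and the median log2 fold change was 4.32 beside −0.05. With scaling by total counts 27 of the 70 passed, of 51 in all. Without UNC0642-treated replicate 1 or 2 the number was 3 or 10, and without replicate 1 or 2 of the combined condition 34 or 31. The UNC0642-treated libraries were held low by the rule, as the WT libraries were.

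Set against Setdb1 KO mESCs, the combined condition gave no gene that passed in the main fit, which has no replicate block. This held in either direction, both among the 70 (0%) and among all genes tested (0%). By the labels, days of 4-OHT differ here too and cannot be told apart from UNC0642. An unadjusted p under 0.05 was found for 5 of the 70 genes that were higher (Asb12, Cyp4a12b, Ifi203, Slc22a13 and Stxbp5l) and 4 that were lower (Mael, Mmp10, Mov10l1 and Zcwpw1), beside 430 and 290 of all genes. DESeq2 on all 8 libraries called 3 of the 70 higher, Asb12, Cyp4a12b and Ifi203, and 91 genes in all, and 0 of the 70 lower. With the replicate number as a block, 18 genes in all were called higher and 1 lower, with 0 of the 70 in either direction. Without the filter 5 genes in all were called higher, again with 0 of the 70. The median log2 fold change of the 70 genes was 0.12 (range −2.34 to 3.29) beside −0.02 over all genes, and it turned to −0.03 without Setdb1 KO replicate 1 and to −0.04 without replicate 1 of the combined condition. The Setdb1 KO libraries had been chosen to be high, so a fall toward the mean of their noise is built into this comparison.

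In CPM, both libraries of the combined condition lay above both Setdb1 KO libraries for 12 of the 70 genes (9.19% of all genes) and below both for 11 (16.1% of all genes). With TMM-scaled CPM these were 12 and 10 genes, 9 and 9 of them shared with the former. The median absolute difference between the means of the 2 conditions was 0.35 on the log2(CPM + 0.5) scale. The median difference between single replicates was 0.72 in Setdb1 KO mESCs and 0.61 in the combined condition, and a difference between means of 2 libraries is smaller than one between single libraries even with no change. A ratio of 2 or more over Setdb1 KO in both pairs was found for 6 genes (2.12% of all genes), and of 0.5 or less for 3 (1.68%).

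**Figure D2:**
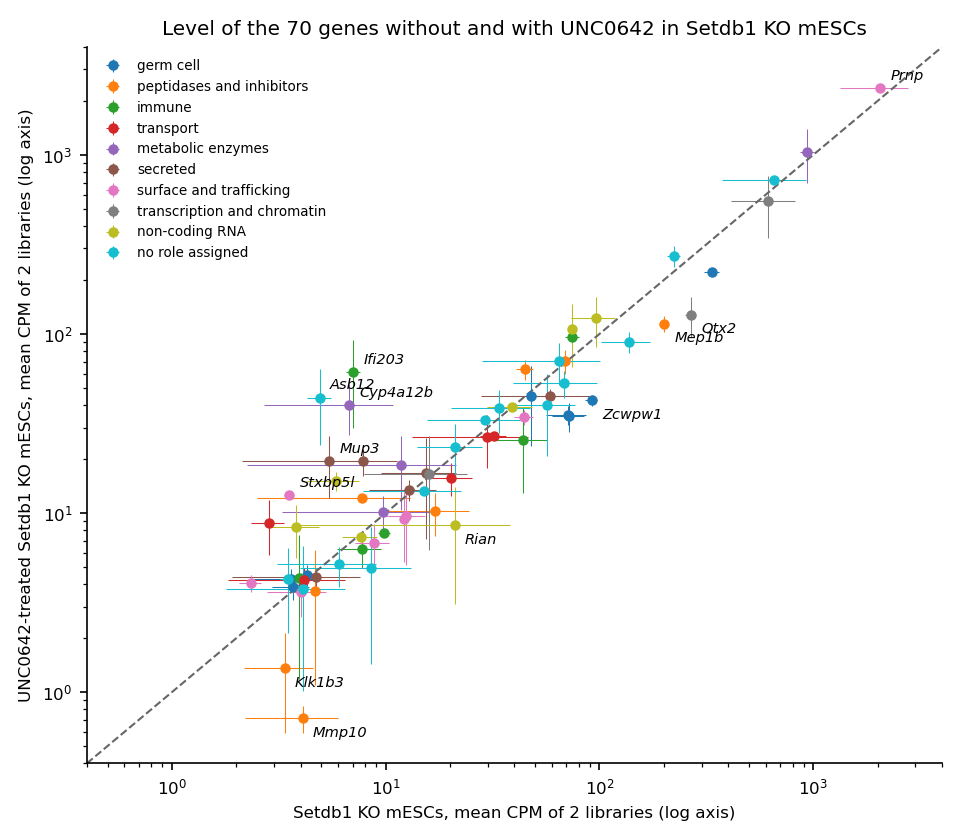
Mean CPM of each of the 70 genes in Setdb1 KO mESCs (horizontal, log axis) and in the combined condition (vertical, log axis), with bars from the lower to the higher of 2 replicates, colors by role and the line of equal level dashed. Most genes lie along the line, Ifi203, Cyp4a12b and Asb12 lie farthest above it and Mmp10 farthest below it.

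Genes of germ cells formed a group of 8. They are Mael, Mov10l1 and Rnf17 of the piRNA pathway, which silences transposons in germ cells, Taf7l, the germ cell counterpart of a TFIID subunit, Tex12 of the synaptonemal complex, Zcwpw1, a histone reader at sites of meiotic recombination, Dpy19l2, which shapes the sperm head, and the X-linked testis gene Tex13. In the combined condition 8 of 8 passed the test against WT mESCs, as 63 of the 70 genes did, and 6 against UNC0642-treated mESCs. Mael (chr1:166201201-166238747) was at 5.81 and 7.09 CPM in WT, 4.49 and 6.32 with UNC0642, 56.5 and 86.0 in Setdb1 KO and 30.9 and 39.4 in the combined condition. Its level in the combined condition was between that of WT and Setdb1 KO mESCs with no overlap among the libraries (log2 fold change 2.62, SE 0.40, edgeR adjusted p = 0.00894 over WT; -0.90 over Setdb1 KO, adjusted p = 1).

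Mov10l1 (chr15:88982909-89055152), the helicase that starts piRNA processing, was at 7.69 and 8.92 CPM in WT, 7.92 and 11 with UNC0642, 59.9 and 84.8 in Setdb1 KO and 28.2 and 41.2 in the combined condition. The order of the libraries was the same as for Mael (log2 fold change 2.23, SE 0.39, edgeR adjusted p = 0.0151 over WT). Zcwpw1 (chr5:137787798-137822621) was at 14.4 and 10.9 CPM in WT, 13.4 and 15.2 with UNC0642, 85.9 and 97.8 in Setdb1 KO and 39.8 and 45.8 in the combined condition. Its combined libraries lay below both Setdb1 KO libraries and above both WT libraries (log2 fold change 1.93, SE 0.39, edgeR adjusted p = 0.0281 over WT). It overlaps Pilra on the opposite strand, and since the counting used default parameters whose strand setting is not spelled out in the sources used here, reads of overlapping genes cannot be told apart.

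Rnf17 (chr14:56402581-56525032), a tudor protein of male germ cells, started from a higher level. It was at 68.6 and 41.8 CPM in WT, 80.1 and 54.1 with UNC0642, 363 and 309.7 in Setdb1 KO and 211 and 235 in the combined condition (log2 fold change 2.18, SE 0.50, edgeR adjusted p = 0.0468 over WT). For these 4 genes both combined libraries were below both Setdb1 KO libraries under CPM and under TMM scaling, with log2 fold changes over Setdb1 KO from −0.99 to −0.51, which did not pass the test.

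Taf7l (chrX:134460118-134476490), on the X chromosome, was at 2.82 and 2.87 CPM in WT, 2.99 and 4.15 with UNC0642, 39.2 and 56.5 in Setdb1 KO and 23.6 and 66.1 in the combined condition. Here the combined libraries spanned the Setdb1 KO libraries (-0.04 over Setdb1 KO, adjusted p = 1; log2 fold change 4.09, SE 0.53, edgeR adjusted p = 0.00573 over WT). Tex12 was at 0.171 and 0.318 CPM in WT, 0.0440 and 0.260 with UNC0642, 2.95 and 4.39 in Setdb1 KO and 3.28 and 4.50 in the combined condition, with no overlap between the KO conditions and the others. Its neighbour on the opposite strand, Il18, overlaps it. Tex13, which RefSeq lists as Tex13b, and Dpy19l2 had 3.70 and 4.88 and 5.13 and 3.85 CPM in the combined condition against 0.0855 and 0.199 and 0 and 0 in WT mESCs.

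The list of meiosis and germ cell genes put 5 of its 65 genes among the 70. Of its 53 tested genes, 14 were called higher and 1 lower (Rec8) in the combined condition over WT (3.08% and 0.535% of all genes), and of the 48 that are not among the 70, 9 were called higher. A further 9 genes of the list had KO/WT ratios of 4 or more in both pairs but exceeded the UNC/WT limit. Dazl, an RNA-binding protein of early germ cells, missed it by little with UNC/WT ratios of 1.52 and 1.10, and its levels were 5.90 and 16.6 CPM in WT, 9.20 and 18.4 with UNC0642, 83.8 and 71.0 in Setdb1 KO and 79.0 and 119.6 in the combined condition. Stk31, a testis kinase, had UNC/WT ratios of 1.04 and 1.54 and levels of 25.6 and 12.8 CPM in WT, 26.7 and 20.1 with UNC0642, 295 and 323 in Setdb1 KO and 190.5 and 454 in the combined condition. In both, the lowest library of the KO conditions was above the highest of the others. Testis and X-linked antigen families put 2 of 101 genes among the 70, Tex12 and Tex13, and 14 of their 55 tested genes were called higher and 0 lower, beside the same shares of all genes.

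**Figure D3:**
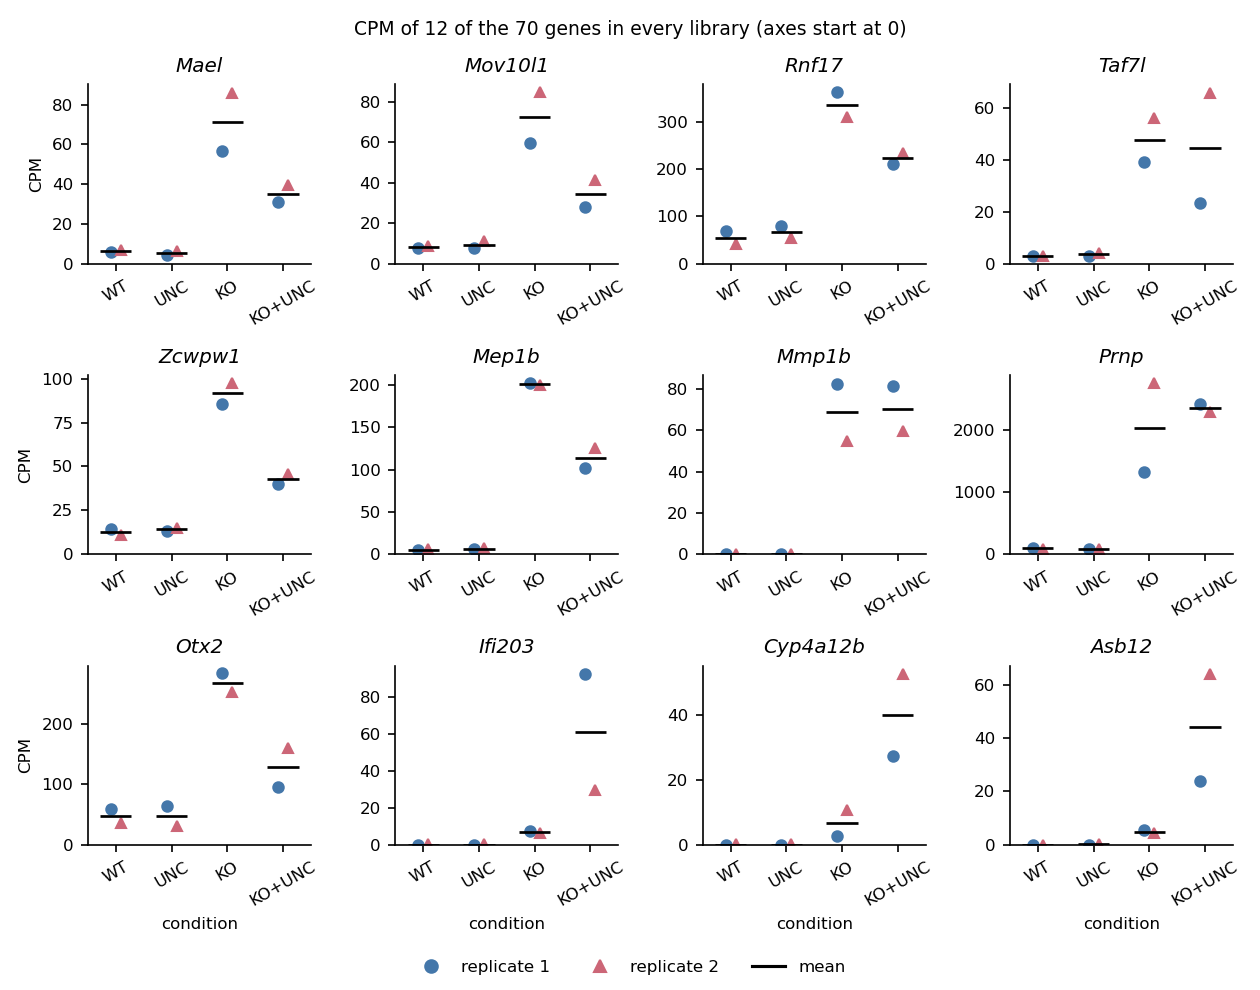
CPM of 12 of the 70 genes in each of the 4 conditions (KO+UNC is the combined condition), with replicate 1 as circles, replicate 2 as triangles and the mean as a line. Mael, Mov10l1, Rnf17, Zcwpw1, Mep1b and Otx2 were lower in both combined libraries than in both Setdb1 KO libraries, Ifi203, Cyp4a12b and Asb12 were higher, and Taf7l, Mmp1b and Prnp overlapped.

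Peptidases and peptidase inhibitors were a further group of 8. All 8 passed the test against WT mESCs, where 63 of the 70 genes did. Mep1b, the beta subunit of the brush border metallopeptidase meprin, was at 4.53 and 5.61 CPM in WT, 6.34 and 7.09 with UNC0642, 202 and 199.6 in Setdb1 KO and 102 and 126 in the combined condition. The 2 Setdb1 KO libraries were alike, and both combined libraries were lower than these and more than 10 times higher than both WT libraries (log2 fold change 4.67, SE 0.42, edgeR adjusted p = 0.00176 over WT; -0.72 over Setdb1 KO, adjusted p = 1).

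Mmp1b (chr9:7368239-7388047), a collagenase of the matrix metallopeptidase family, was at 0 and 0 CPM in WT, 0.176 and 0.0865 with UNC0642, 82.6 and 54.9 in Setdb1 KO and 81.3 and 59.6 in the combined condition. It was not seen in WT mESCs, and the KO conditions overlapped (log2 fold change 13.68, SE 1.08, edgeR adjusted p = 0.00176 over WT). This fold change and its SE depend on the prior count of the fit. With WT set to the floor of 3 counts per library, the combined condition was at least 375-fold higher than WT. Mmp12, the neighbouring elastase gene, overlaps Mmp1b on the opposite strand. Reads of the overlap cannot be told apart, which leaves the levels of Mmp1b and its 375-fold bound uncertain. Mmp12 was at 0.0855 and 1.11 CPM in WT, 0.924 and 2.12 with UNC0642, 181 and 291 in Setdb1 KO and 128 and 330.4 in the combined condition. Its UNC/WT ratios of 2.43 and 1.62 kept it out of the 70. Mmp10, a stromelysin on the same chromosome, was at 0 and 0 CPM in WT, 0 and 0 with UNC0642, 2.20 and 5.97 in Setdb1 KO and 0.588 and 0.838 in the combined condition. Both combined libraries were below both Setdb1 KO libraries, and it had the lowest log2 fold change over Setdb1 KO of the 70 genes (log2 fold change -2.34, SE 0.80, edgeR adjusted p = 0.894). With between 7 and 22 counts per combined library this value rests on few reads.

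The glandular kallikreins Klk1b24 and Klk1b3, serine peptidases, lie next to each other on chromosome 7 with start sites 9955 bases apart. Klk1b24 (chr7:44188236-44192455) was at 0 and 0.0398 CPM in WT, 0 and 0.130 with UNC0642, 9.55 and 24.4 in Setdb1 KO and 7.48 and 13.0 in the combined condition. Klk1b3 (chr7:44198191-44202352) was at 0 and 0 CPM in WT, 0.0440 and 0 with UNC0642, 2.16 and 4.57 in Setdb1 KO and 0.588 and 2.13 in the combined condition. These genes belong to a family of close copies among which shared reads were divided by the counting, so the level of each is uncertain.

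The stefin gene 2010005H15Rik (chr16:36221468-36257444), which RefSeq lists as Csta2 and which belongs to a family of cysteine peptidase inhibitors with close copies, was at 0.0855 and 0.159 CPM in WT, 0 and 0 with UNC0642, 48.7 and 40.9 in Setdb1 KO and 71.9 and 55.6 in the combined condition. Both combined libraries were above both Setdb1 KO libraries in CPM, though not with TMM scaling. Serpinb9f, of the family of granzyme inhibitors, was at 0.171 and 0.0796 CPM in WT, 0.132 and 0.303 with UNC0642, 13.0 and 2.50 in Setdb1 KO and 11.8 and 12.5 in the combined condition. The combined libraries lay between the 2 Setdb1 KO libraries, which were far apart. Dpep1, a renal membrane dipeptidase, was at 0 and 0.0398 CPM in WT, 0.0440 and 0.0865 with UNC0642, 4.74 and 4.57 in Setdb1 KO and 1.09 and 6.25 in the combined condition, so that 1 combined library lay below both Setdb1 KO libraries and the other above them. Of the 125 tested peptidase and inhibitor genes by symbol, 13 were called higher and 1 lower in the combined condition over WT (3.08% and 0.535% of all genes), and 6 of the 13 are among the 70. Gut epithelium markers summed to between 2.16 and 6.75 CPM in the 8 libraries.

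Genes known from immune cells numbered 6. H2-Q4, a class I histocompatibility gene, was at 19.4 and 16.8 CPM in WT, 19.6 and 20.6 with UNC0642, 80.2 and 69.2 in Setdb1 KO and 106 and 85.8 in the combined condition. Its KO/WT ratios of 4.05 and 4.02 were among the closest to the limit, and both combined libraries were above both Setdb1 KO libraries in CPM, though not with TMM scaling (0.48 over Setdb1 KO, adjusted p = 1). Class I genes have close copies, so its reads may be shared with others. Cd59a, an inhibitor of complement, was at 3.42 and 1.31 CPM in WT, 1.85 and 1.47 with UNC0642, 30.8 and 56.9 in Setdb1 KO and 12.9 and 38.4 in the combined condition. Cd22, an inhibitory receptor of B cells, was at 0 and 0.119 CPM in WT, 0.132 and 0.0433 with UNC0642, 9.18 and 10.5 in Setdb1 KO and 7.56 and 7.92 in the combined condition. Both rose in the combined condition over WT (3.54 and 6.79 on the log2 scale, adjusted p = 0.0243 and 0.007).

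Fcgr3, an Fc receptor for IgG, was at 0.0855 and 0.239 CPM in WT, 0.0440 and 0.0865 with UNC0642, 3.54 and 4.32 in Setdb1 KO and 1.18 and 7.54 in the combined condition. The combined libraries lay on either side of the Setdb1 KO libraries. H60b, a ligand of the NK cell receptor NKG2D, was at 1.11 and 0.955 CPM in WT, 0.660 and 0.216 with UNC0642, 9.51 and 5.91 in Setdb1 KO and 7.56 and 4.95 in the combined condition. It did not pass against WT (log2 fold change 2.82, SE 0.78, edgeR adjusted p = 0.0853). Raet1e overlaps H60b on the same strand, with start sites 17 bases apart, and reads of the overlap cannot be told apart. Raet1e was at 8.03 and 6.89 CPM in WT and 6.73 and 6.92 with UNC0642. In Setdb1 KO it was at 20.03 and 21.6 CPM, and in the combined condition at 22.2 and 24.99. Its KO/WT ratios of 2.41 and 2.99 kept it out of the 70. H60b lies head to head with E030030I06Rik, another of the 70 genes, with start sites 9316 bases apart. That gene was at 1.37 and 3.26 CPM in WT, 1.36 and 4.97 with UNC0642, 39.3 and 97.7 in Setdb1 KO and 44.1 and 61.8 in the combined condition. Of 171 tested immune surface and signaling genes by symbol, 14 were called higher and 2 lower (3.08% and 0.535% of all genes). Interferon genes of a list of Ifit, Oas, Mx and other genes put 0 of 18 among the 70 and 0 of 11 tested were called in either direction, and the same held for 0 of 10 p53 target genes. The pan-leukocyte marker Ptprc had at most 3 counts in any library, and the 4 blood markers summed to between 24.2 and 71.7 CPM, most of it from Laptm5.

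Ifi203 (chr1:173920407-173942672), an interferon-inducible gene of the PYHIN family, had the highest log2 fold change of the combined condition over Setdb1 KO among the 70. It was at 0 and 0.159 CPM in WT, 0.0440 and 0.216 with UNC0642, 7.61 and 6.52 in Setdb1 KO and 92.5 and 29.8 in the combined condition. Both combined libraries exceeded both Setdb1 KO libraries, and replicate 1 was the higher of them (log2 fold change 3.29, SE 0.80, edgeR adjusted p = 0.567; DESeq2 on all 8 libraries, log2 fold change 3.34, adjusted p = 0.00166). It overlaps its family member Mndal on the same strand, which was at 0 and 0 CPM in WT, 0.0440 and 0.0865 with UNC0642, 0.858 and 1.22 in Setdb1 KO and 1.01 and 4.50 in the combined condition.

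Carriers, channels and their relatives numbered 5. Slc39a8, a zinc and manganese importer, was at 1.11 and 1.55 CPM in WT, 1.5 and 1.3 with UNC0642, 15.3 and 25.2 in Setdb1 KO and 12.4 and 19.0 in the combined condition (log2 fold change 3.72, SE 0.54, edgeR adjusted p = 0.00782 over WT). Slc22a13, an organic anion transporter, was at 0 and 0.0796 CPM in WT, 0 and 0.0433 with UNC0642, 2.35 and 3.35 in Setdb1 KO and 5.80 and 11.8 in the combined condition, with both combined libraries above both Setdb1 KO libraries (log2 fold change 1.71, SE 0.69, edgeR adjusted p = 1 over Setdb1 KO).

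Gabrr1 (chr4:33132521-33163588), a GABA receptor subunit of the retina, was at 0.171 and 0.358 CPM in WT, 0 and 0.0865 with UNC0642, 13.3 and 46.2 in Setdb1 KO and 35.0 and 17.9 in the combined condition (log2 fold change 6.80, SE 0.95, edgeR adjusted p = 0.007 over WT). The KO conditions overlapped. Trpc6, a cation channel, was at 0 and 0.119 CPM in WT, 0.176 and 0.346 with UNC0642, 1.83 and 6.46 in Setdb1 KO and 3.53 and 4.91 in the combined condition. Clca4, of a family that regulates chloride channels, was at 6.15 and 5.13 CPM in WT, 8.01 and 7.14 with UNC0642, 36.6 and 27.7 in Setdb1 KO and 26.6 and 27.3 in the combined condition. By symbol, carriers put 2 of 439 genes among the 70 and channels 2 of 259. Of the tested ones, 10 of 323 carriers were called higher and 2 lower, and 4 of 140 channels higher and 3 lower. Of all genes, 3.08% were called higher and 0.535% lower.

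Metabolic enzymes numbered 4. Cyp4a12b (chr4:115411624-115439034), a fatty acid hydroxylase of liver and kidney, was at 0 and 0.0796 CPM in WT, 0 and 0.130 with UNC0642, 2.69 and 10.8 in Setdb1 KO and 27.3 and 52.6 in the combined condition. It rose in the combined condition over WT (log2 fold change 9.60, SE 1.19, edgeR adjusted p = 0.00512), and both combined libraries were above both Setdb1 KO libraries, of which replicate 2 was itself above replicate 1 (log2 fold change 2.72, SE 0.80, edgeR adjusted p = 0.716 over Setdb1 KO; DESeq2 on all 8 libraries, 2.75, adjusted p = 0.0151). The Cyp4a genes are close copies, and its reads may be shared with Cyp4a30b, a neighbour at 0 and 0 CPM in WT, 0 and 0 with UNC0642, 0.634 and 0.548 in Setdb1 KO and 1.18 and 1.33 in the combined condition. Rdh16, a retinol dehydrogenase, was at 0 and 0 CPM in WT, 0 and 0.0433 with UNC0642, 21.3 and 2.25 in Setdb1 KO and 10.4 and 26.8 in the combined condition. Vnn1, a pantetheinase, was at 0.0855 and 0.358 CPM in WT, 0.176 and 0.346 with UNC0642, 16.1 and 3.29 in Setdb1 KO and 12.4 and 7.85 in the combined condition. In both, the 2 Setdb1 KO libraries were over 4-fold apart.

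Cmah (chr13:24327404-24477377), the enzyme that makes N-glycolylneuraminic acid, was high from the start, at 228 and 143 CPM in WT, 302 and 133 with UNC0642, 1013 and 863 in Setdb1 KO and 1389 and 693 in the combined condition. Replicate 1 was above replicate 2 in every condition. Its combined libraries were above both WT libraries without passing the test (log2 fold change 2.72, SE 0.70, edgeR adjusted p = 0.0657). Of 104 tested genes of drug and steroid metabolism by symbol, 8 were called higher and 2 lower (3.08% and 0.535% of all genes).

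Secreted proteins numbered 6, and all 6 passed the test against WT, as most of the 70 genes did. Gc, the vitamin D binding protein of plasma, was at 1.71 and 0.677 CPM in WT, 2.20 and 1.3 with UNC0642, 11.3 and 4.39 in Setdb1 KO and 16.1 and 22.8 in the combined condition. Mup3, a major urinary protein, was at 0 and 0 CPM in WT, 0.132 and 0.0433 with UNC0642, 8.69 and 2.13 in Setdb1 KO and 26.9 and 12.2 in the combined condition. Lalba, the milk protein alpha-lactalbumin, was at 0 and 0.0398 CPM in WT, 0 and 0.130 with UNC0642, 1.90 and 7.55 in Setdb1 KO and 3.87 and 4.88 in the combined condition. For Gc and Mup3 both combined libraries were above both Setdb1 KO libraries (1.32 and 1.92 on the log2 scale, adjusted p = 1 and 1), and for Lalba they lay between them. Mup and pregnancy-specific glycoprotein genes are large families of close copies. Psg23, of the latter, was at 1.71 and 1.11 CPM in WT, 1.14 and 1.38 with UNC0642, 8.36 and 17.2 in Setdb1 KO and 11.7 and 15.2 in the combined condition. Cthrc1, a collagen-like secreted protein, was at 4.36 and 1.75 CPM in WT, 2.99 and 1.47 with UNC0642, 28.1 and 89.4 in Setdb1 KO and 49.0 and 40.7 in the combined condition. Plac9a, a placenta-specific gene, was at 1.97 and 3.03 CPM in WT, 1.32 and 2.38 with UNC0642, 9.55 and 21.4 in Setdb1 KO and 7.14 and 26.2 in the combined condition. The combined libraries lay within the range of the Setdb1 KO libraries for Psg23 and Cthrc1 and spanned it for Plac9a.

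Prnp (chr2:131909928-131938429), which encodes the prion protein, a surface protein on a lipid anchor, had the highest level of all 70 genes. It was at 105 and 83.2 CPM in WT, 89.6 and 84.0 with UNC0642, 1331 and 2759.6 in Setdb1 KO and 2422 and 2289 in the combined condition (log2 fold change 4.84, SE 0.58, edgeR adjusted p = 0.0048 over WT; 0.38 over Setdb1 KO, adjusted p = 1). The 2 combined libraries were alike and lay between the 2 Setdb1 KO libraries. Per kilobase of exon it stood at 873 in Setdb1 KO mESCs (CPM per kilobase, mean of 2), followed, among the 68 genes with an annotated length, by Cmah with 88.0, Mep1b with 76.5 and 2010005H15Rik with 70.1. Clca4 and the abundant 4933409K07Rik had no length and could not be ranked. The annotated readthrough gene Prn overlaps it on the same strand.

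The other genes of surface proteins, trafficking and the cytoskeleton were lower. Myo5b, a myosin of recycling endosomes, was at 4.53 and 3.66 CPM in WT, 4.00 and 4.93 with UNC0642, 49.1 and 40.0 in Setdb1 KO and 30.8 and 37.7 in the combined condition. Calcr, the calcitonin receptor, was at 1.28 and 0.717 CPM in WT, 0.792 and 0.952 with UNC0642, 9.66 and 15.4 in Setdb1 KO and 5.13 and 14.1 in the combined condition. Vstm5, an immunoglobulin domain protein, was at 0.684 and 1.39 CPM in WT, 0.528 and 0.908 with UNC0642, 12 and 12.2 in Setdb1 KO and 5.30 and 13.2 in the combined condition. All 3 passed against WT with log2 fold changes between 3.24 and 3.39. Sytl2, an effector of secretory Rab proteins, was at 0.171 and 0.159 CPM in WT, 0.0440 and 0.173 with UNC0642, 2.80 and 5.24 in Setdb1 KO and 4.62 and 2.63 in the combined condition. Dcdc2a, of the doublecortin family of microtubule proteins, was at 1.28 and 0.199 CPM in WT, 0.308 and 0.476 with UNC0642, 10.4 and 7.19 in Setdb1 KO and 4.96 and 8.69 in the combined condition. It did not pass (log2 fold change 3.39, SE 0.88, edgeR adjusted p = 0.0685).

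Stxbp5l, a tomosyn that restrains secretion, was at 0.427 and 0.0796 CPM in WT, 0.308 and 0.173 with UNC0642, 3.36 and 3.72 in Setdb1 KO and 12.2 and 12.9 in the combined condition. Both combined libraries were above both Setdb1 KO libraries, with the replicates closely alike in each (log2 fold change 1.94, SE 0.71, edgeR adjusted p = 0.905 over Setdb1 KO). Ceacam19, of the carcinoembryonic antigen family, was at 0 and 0.159 CPM in WT, 0.220 and 0.260 with UNC0642, 2.05 and 2.62 in Setdb1 KO and 3.61 and 4.50 in the combined condition. It showed the same order with a smaller difference (0.90 on the log2 scale, adjusted p = 1).

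Of the 3 genes of transcription and chromatin, 0 passed against WT in the fit without the replicate block, and all 3 passed with it. Otx2 (chr14:48657677-48673819), a homeobox factor of the epiblast and the anterior brain, was at 59.3 and 36.3 CPM in WT, 63.3 and 31.0 with UNC0642, 283 and 252 in Setdb1 KO and 95.8 and 160.5 in the combined condition. Both combined libraries lay between WT and Setdb1 KO mESCs, and in replicate 1 the ratio to WT was 1.61, the lowest of the 70 genes (log2 fold change 1.55, SE 0.54, edgeR adjusted p = 0.166 over WT; -1.01 over Setdb1 KO, adjusted p = 1). Otx2os1 overlaps it on the opposite strand. The germ layer markers summed to between 7.24 and 39.0 CPM in the 8 libraries.

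Fam208b (chr13:3566035-3611108), which RefSeq lists as Tasor2, a relative of a subunit of the silencing complex HUSH, was at 139.9 and 93.6 CPM in WT, 160.1 and 67.9 with UNC0642, 817 and 410.5 in Setdb1 KO and 765 and 343 in the combined condition (log2 fold change 2.49, SE 0.76, edgeR adjusted p = 0.113 over WT). Replicate 1 was above replicate 2 in every condition. Asb13, which starts 22924 bases from it, was at 3.85 and 6.01 CPM in WT, 4.09 and 10.5 with UNC0642, 70.02 and 93.2 in Setdb1 KO and 61.5 and 136 in the combined condition. It had KO/WT ratios of 16.2 and 14.4, and was kept out of the 70 by UNC/WT ratios of 1.06 and 1.69. Gdi2 overlaps Fam208b on the opposite strand, and reads of the overlap cannot be told apart. Gdi2 was at 1075 and 593 CPM in WT and 944 and 627 with UNC0642. In Setdb1 KO it was at 1054 and 919 CPM, and in the combined condition at 904 and 778. AU022751, which RefSeq lists as Ezhip, an inhibitor of the histone methyltransferase complex PRC2, was at 0.769 and 3.22 CPM in WT, 1.23 and 4.54 with UNC0642, 7.91 and 24.1 in Setdb1 KO and 6.22 and 26.8 in the combined condition (log2 fold change 3.14, SE 0.92, edgeR adjusted p = 0.1 over WT), with replicate 2 over 2-fold above replicate 1 in every condition.

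**Figure D4:**
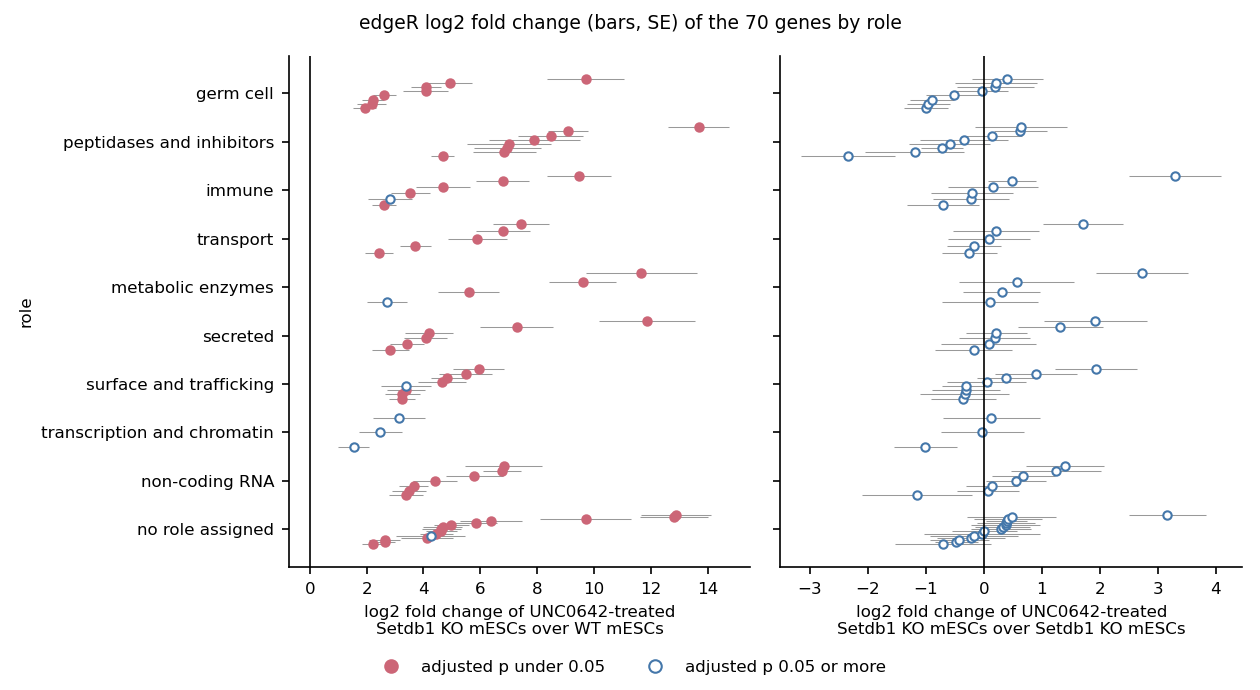
Log2 fold change of the combined condition over WT mESCs (left) and over Setdb1 KO mESCs (right) from edgeR, with each of the 70 genes as a point. Bars are the SE, taken as the absolute log2 fold change divided by the square root of the F statistic. Roles are on the vertical axis. Filled points passed an adjusted p under 0.05. All 70 points are above 0 on the left, where values of the 9 genes at 0 in WT depend on the prior count, and on the right they range from −2.34 to 3.29 with none filled.

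Non-coding RNAs numbered 7. Rian, a maternally expressed long RNA of an imprinted domain that hosts small RNAs, was at 0 and 0.119 CPM in WT, 0.176 and 0.260 with UNC0642, 3.88 and 38.1 in Setdb1 KO and 3.11 and 14.0 in the combined condition. Replicate 2 was above replicate 1 in both KO conditions, and the conditions overlapped (log2 fold change -1.15, SE 0.96, edgeR adjusted p = 1 over Setdb1 KO). The lincRNA Gm19757 (chr6:105481266-105492668) was at 1.62 and 1.07 CPM in WT, 2.24 and 1.56 with UNC0642, 73.4 and 118 in Setdb1 KO and 161 and 84.2 in the combined condition (log2 fold change 6.77, SE 0.68, edgeR adjusted p = 0.00275 over WT) and Gm10845 at 14.3 and 9.95 CPM in WT, 13.5 and 10.8 with UNC0642, 76.9 and 72.0 in Setdb1 KO and 146 and 65.7 in the combined condition. Gm8579 was at 0.940 and 0.677 CPM in WT, 1.63 and 0.649 with UNC0642, 7.46 and 4.26 in Setdb1 KO and 13.3 and 16.9 in the combined condition. 1700063D05Rik was at 0.0855 and 0.239 CPM in WT, 0 and 0.0865 with UNC0642, 4.85 and 2.80 in Setdb1 KO and 11.1 and 5.64 in the combined condition. In both, the combined libraries were above both Setdb1 KO libraries in CPM, for Gm8579 also with TMM scaling. 2210039B01Rik was at 3.08 and 3.98 CPM in WT, 4.40 and 2.98 with UNC0642, 29.9 and 48.1 in Setdb1 KO and 37.8 and 40.1 in the combined condition. Gm5860 was at 0.598 and 0.876 CPM in WT, 1.01 and 0.779 with UNC0642, 6.23 and 9.14 in Setdb1 KO and 7.14 and 7.58 in the combined condition. Their combined libraries lay between the Setdb1 KO libraries, and all 7 non-coding RNAs passed against WT.

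To the remaining 15 genes no role was assigned. Asb12 (chrX:95470201-95557987), an ankyrin repeat protein of the SOCS box family on the X chromosome, was at 0 and 0 CPM in WT, 0.0440 and 0.216 with UNC0642, 5.56 and 4.26 in Setdb1 KO and 24.0 and 63.9 in the combined condition. Both combined libraries were more than 4-fold above both Setdb1 KO libraries and differed between themselves by more than 2-fold (log2 fold change 3.17, SE 0.66, edgeR adjusted p = 0.48 over Setdb1 KO; DESeq2 on all 8 libraries, 3.18, adjusted p = 0.000329). Gm1110 had 0 counts in all 4 WT and UNC0642-treated libraries and was at 20.2 and 47.5 CPM in Setdb1 KO mESCs and 48.9 and 28.1 in the combined condition. BC051019 was at 0.256 and 0.677 CPM in WT, 0.484 and 0.476 with UNC0642, 14.0 and 28.3 in Setdb1 KO and 31.6 and 15.4 in the combined condition.

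The most abundant of them, 4933409K07Rik, was at 35.9 and 30.5 CPM in WT, 37.1 and 34.2 with UNC0642, 376 and 929 in Setdb1 KO and 698 and 749 in the combined condition. 2410089E03Rik, a ciliary gene that RefSeq lists as Cplane1, was at 47.9 and 51.4 CPM in WT, 41.7 and 52.8 with UNC0642, 208 and 238 in Setdb1 KO and 237 and 309.8 in the combined condition. Ccdc85a, a coiled-coil gene, was at 6.67 and 7.32 CPM in WT, 3.74 and 7.74 with UNC0642, 37.5 and 76.7 in Setdb1 KO and 20.8 and 59.5 in the combined condition. 9430020K01Rik, a junction protein gene that RefSeq lists as Jcad, was at 23.3 and 19.9 CPM in WT, 17.1 and 17.2 with UNC0642, 102 and 173 in Setdb1 KO and 78.3 and 103 in the combined condition. In these 4 genes the Setdb1 KO and combined libraries overlapped in CPM. With TMM scaling 2410089E03Rik was above both Setdb1 KO libraries and 9430020K01Rik below both.

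Gm11127 was at 2.05 and 2.91 CPM in WT, 2.16 and 3.63 with UNC0642, 28.3 and 101 in Setdb1 KO and 52.1 and 89.5 in the combined condition. A430078G23Rik, which RefSeq lists under Arhgef18, was at 1.79 and 1.67 CPM in WT, 1.63 and 2.64 with UNC0642, 15.5 and 42.5 in Setdb1 KO and 34.0 and 32.0 in the combined condition. 4930519F09Rik was at 0.684 and 0.557 CPM in WT, 0.484 and 0.433 with UNC0642, 7.83 and 22.5 in Setdb1 KO and 13.8 and 12.9 in the combined condition. In these 3 the combined libraries lay between the Setdb1 KO libraries. 4930572O03Rik was at 0 and 0 CPM in WT, 0.220 and 0.173 with UNC0642, 3.99 and 13.1 in Setdb1 KO and 1.43 and 8.38 in the combined condition. Fam107a was at 0 and 0.358 CPM in WT, 0.220 and 0.433 with UNC0642, 1.79 and 6.46 in Setdb1 KO and 1.01 and 6.51 in the combined condition. 1700008F21Rik, which RefSeq lists as Ccdc7b, was at 0.0855 and 0.0398 CPM in WT, 0 and 0 with UNC0642, 3.21 and 3.78 in Setdb1 KO and 6.39 and 2.13 in the combined condition. In these 3 the combined replicates were over 2-fold apart, and Fam107a did not pass against WT (log2 fold change 4.25, SE 1.20, edgeR adjusted p = 0.0915). Predicted genes and clone names made up 19 of the 70, and of the 1290 tested genes with such names 151 were called higher and 5 lower in the combined condition over WT (3.08% and 0.535% of all genes).

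Of the 70 genes, 5 lie on the X chromosome (7.14% against 4.38% of all placed genes) and 9 on chromosome 9 (12.9% against 5.6%). An overlap with an annotated gene was found on the opposite strand for 26 and on the same strand for 14. Within 100 kb of their start sites lay 247 further genes, 141 of which were tested. Of these, 13 were called higher in the combined condition over WT (3.08% of all genes were), and 7 had KO/WT ratios of 4 or more in both pairs. The 7 are Mmp12, Asb13, the homeobox gene Cphx1, the Speer genes Speer4c, Speer4d and Speer7-ps1 next to 4930572O03Rik, and Dmrtc1c1 next to Dmrtc1b. Speer and Dmrtc1 genes are close copies of their neighbours. Dmrtc1c1 was also above the UNC/WT limit. It was at 0.0855 and 0.398 CPM in WT, 4.36 and 7.83 with UNC0642, 2.46 and 4.93 in Setdb1 KO and 6.30 and 18.0 in the combined condition. Dmrtc1b was at 0.427 and 0.279 CPM in WT, 0.836 and 0.519 with UNC0642, 8.99 and 3.11 in Setdb1 KO and 6.47 and 3.85 in the combined condition.

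The genes just inside the KO/WT limit were Psg23, H2-Q4 and Gm8579, with smaller ratios of 4.01, 4.02 and 4.05, and those just outside were Lpl, D730045A05Rik and AW551984 with 3.95, 3.92 and 3.90. Just inside the UNC/WT limit were Gc, Gm8579 and Tex13, with larger ratios of 1.49, 1.48 and 1.46, and just outside were Dazl, 4930558C23Rik and Sntg1 with 1.52, 1.53 and 1.53. Lpl, the lipoprotein lipase, was at 28.8 and 9.63 CPM in WT, 17.8 and 13.7 with UNC0642, 115 and 69.99 in Setdb1 KO and 48.3 and 51.6 in the combined condition. Sntg1, a syntrophin, was at 0.0855 and 0.119 CPM in WT, 0.396 and 0.433 with UNC0642, 6.42 and 7.55 in Setdb1 KO and 2.69 and 16.8 in the combined condition.

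When the rule was applied in replicate pair 1 alone it chose 147 genes. Their KO/WT ratio in pair 2 had a median of 6.03, with 94 genes (63.9%) at 4 or more, beside 1.43% of all genes. Only 70 of the 147 kept both limits in pair 2. In pair 2 alone the rule chose 156 genes, with a median of 4.51 in pair 1 and 86 genes (55.1%) at 4 or more, beside 1.67% of all genes. Of the 156, 70 kept both limits in pair 1. These are the libraries that chose the 70 genes, and same-numbered replicates share deviations, so the numbers are a description and no test. The rule turned round, for genes raised by UNC0642 and not by Setdb1 loss, gave 5 genes (Cd3e, Klb, Nxf3, Ptprtos and Samd7). Nxf3, of the RNA export factors, was at 1.54 and 0.955 CPM in WT, 12 and 12.2 with UNC0642, 0.410 and 0.426 in Setdb1 KO and 9.75 and 11.7 in the combined condition. Genes at 4-fold or more in both single conditions numbered 13, with the same families left out. Among them were 5 Zscan4 genes of the 2-cell-like state. Zscan4c was at 5.04 and 16.0 CPM in WT, 406 and 160.2 with UNC0642, 180.2 and 84.9 in Setdb1 KO and 587 and 298 in the combined condition. In these 13 genes both combined libraries were above both WT libraries, as in the 70, beside 15.9% of all genes tested. Low WT values were favored in choosing both sets, so this separation is not independent of the choice.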

How the data were processed

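Poly(A) RNA-seq libraries of 4 conditions with 2 replicates each were analyzed. The authors trimmed reads with Trim Galore 0.3.7, aligned them to mm10 (GRCm38) with TopHat2 and counted genes and repeat subfamilies with TEtranscripts at default parameters, which shares multi-mapped reads among copies, and the deposited values are raw counts. The strand setting that these defaults apply is not spelled out in the sources used here. For the test, 15313 genes and 932 of 1153 repeat subfamilies were kept (filterByExpr, minimum count 10, minimum total 15), scaled by TMM and fitted with edgeR 4.0.16 (quasi-likelihood, all 8 libraries, 1 term per condition) under R 4.3.3, with Benjamini-Hochberg adjustment over all features and a threshold of 0.05. All 70 genes passed this filter, helped by the conditions in which they are high. The SE given with an edgeR log2 fold change is its absolute value divided by the square root of the F statistic. For genes at 0 in a group, where the fold change depends on the prior count, this SE does too. Library totals (11702590 to 26807807 counts) included the subfamilies. DESeq2 1.42.0, other scalings, filters, a block on the replicate number and leaving out each library were run as alternatives. The fit was tested on simulated counts, with changes only in genes above 1 CPM in WT. The median of the 70 genes in WT, 0.739 CPM, is lower, so the simulation did not cover the low genes.

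Deviations of same-numbered replicates from their condition means correlated at 0.285 to 0.663 in the 6 pairs of conditions, which was taken to pair them, although no label says that cultures were paired. Groups came from the labels. Positions were matched by symbol to GENCODE M21 (4 of 68 by RefSeq synonym), and windows to RefSeq. Roles were assigned by hand from gene names. The 70 genes, the lists and the roles were chosen with earlier results of these data known. Named genes are Setdb1, Hprt, the 15 most abundant and 10 most raised members, the 5 highest and 5 lowest over Setdb1 KO, those nearest the limits and members of the lists or neighbouring each other. Other members are named because each is accounted for, and other genes were chosen after their values were seen.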

Additional observations from a re-analysis of the deposited data

How the results depend on the processing

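The choice of genes moved with its limits. It gave 218 genes at a KO/WT ratio of 2 or more, 15 at 10 or more, 40 at the lower UNC/WT limit tried, 109 at a limit of 2, 147 in replicate pair 1 alone and 156 in pair 2 alone, in place of 70. With 0.1 CPM added it gave 94 genes, 46 of them among the 70, with 2 CPM 48 genes (33 shared), and with replicate numbers crossed 57 (48 shared). TMM-scaled CPM and totals over genes only each shared 68. Over UNC0642-treated mESCs, 27 of the 70 genes passed with scaling by total counts in place of 52. This scaling moved the median of all genes by −0.17 over WT, −0.21 over UNC0642-treated and −0.10 over Setdb1 KO mESCs on the log2 scale. Over Setdb1 KO mESCs, 3 genes passed with DESeq2 on all 8 libraries and 3 on only the 4 libraries compared, in place of 0. The median log2 fold change over WT was 4.19 with a prior count of 2. The median over Setdb1 KO turned from 0.12 to −0.03 without Setdb1 KO replicate 1 and to −0.045 without replicate 1 of the combined condition, within a leave-one-out range of −0.045 to 0.34.

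Leaving out 1 library at a time gave 0 to 63 genes called over WT, 3 to 47 over UNC0642-treated and 0 to 0 over Setdb1 KO mESCs. In the fit with a replicate block the counts were 70, 70 and 0, and the medians 4.63 over WT and 0.11 over Setdb1 KO. Single named genes gave 86 values, 43 over WT and 43 over Setdb1 KO, and only values over WT held calls in the main fit. Of these, 7 lost the call with total counts. Calls were also lost when a WT, Setdb1 KO or combined library was left out. No fold change over WT changed sign under the alternatives, leaving out a library among them. Over Setdb1 KO, where none passed in edgeR, the fold change of 19 of 43 named genes changed sign under at least 1 of them (29 values, 26 of which left out a library), for example Rian and Cmah. The cause of these shifts was not tested. With 2 libraries per condition, levels near 3 counts limit the low genes.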
